A study of Homo sapiens with 48 samples.

Results

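This report describes 10 genes of the contractile apparatus that marks myofibroblasts, among the 29744 genes listed in the deposited count table of human fibroblasts. The genes were taken by name, as every entry of the table whose identifier is ACTA2, TAGLN, CNN1, MYL9, TPM1, TPM2, CALD1, ACTG2, SYNPO2 or MYOCD, and all 10 were found and passed the filter on low counts in both experiments. The study set fibroblasts that lack or overexpress the transcription factor GLIS3 against their controls over a time course of 2 cytokines, TGFβ and IL-1β, each at 10 ng/ml. It comprised 48 bulk RNA-seq libraries, with 3 libraries for each of 16 conditions (4 cell populations at 0, 6, 12 and 24 h).

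All populations came from 1 immortalized skin fibroblast line, CRL-4001, that carries a fluorescent IL-11 reporter and was grown up from reporter-positive clones. H47_Ctrl and H47_KO stably expressed the nuclease Cas9, with a non-targeting guide in H47_Ctrl and a guide against GLIS3 in H47_KO. VP64_Ctrl and VP64_A stably expressed a nuclease-dead Cas9 joined to the VP64 activator, with a non-targeting guide in VP64_Ctrl and a guide that activates GLIS3 in VP64_A. Each population was selected in bulk after lentiviral delivery of its guide, so it is 1 pool of edited cells, and the experiment and the parental derivative cannot be told apart. Every sample, controls included, carries the same cell line label, which calls it Cas9-positive and knocked out for GLIS3. In the VP64 experiment the titles and genotype labels name the groups the other way round from the sample descriptions, and the groups here follow the descriptions. By description, VP64_A libraries held GLIS3 at 13.5 to 38.02 CPM (counts scaled to library size), and VP64_Ctrl libraries at 2.31 to 5.29 CPM. It lay at 1.55 to 8.63 CPM in H47_Ctrl and at 0.146 to 2.46 CPM in H47_KO. The study states in general that its in vitro experiments used independent biological replicates. The labels do not say how the 3 libraries of a condition were raised, and the p-values measure the spread between these libraries, whatever its source.

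Myofibroblasts are fibroblasts that have taken on part of the contractile machinery of smooth muscle, and they pull on and remodel the matrix in wounds and in fibrosis. Smooth muscle α-actin is built into their stress fibres with myosin, tropomyosins and actin-binding proteins. Many of the genes are controlled by the serum response factor SRF, which binds a short A- and T-rich element called the CArG box together with coactivators, myocardin in muscle and the myocardin-related factors more widely. TGFβ is the best known inducer of the state in culture.

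The libraries held 2321990 to 10661004 counts (median 5139646), of which the 10 genes took 0.864% to 2.94%. Fibroblast markers summed to 9648 CPM or more in every library, whereas endothelial markers summed to at most 1.48 CPM. Of the 4 epithelial markers EPCAM was listed at 0 throughout, but the list summed to 301 to 6470 CPM, nearly all of it the keratin KRT18. The late smooth muscle markers MYH11 and DES reached at most 9 and 3 counts, while other smooth muscle genes were expressed and are described further on. In VP64_Ctrl 0 h replicate 3, the 50 most abundant genes took 23.1% of the counts, against a median of 39.9% over all libraries, and its scaling factor was the highest at 1.86. This library held the lowest value of TAGLN, TPM1 and TPM2 in the VP64 experiment. H47_KO 0 h replicate 3 (30.7%, scaling factor 1.52) and H47_KO 24 h replicate 3 (31.4%, 1.52) stood apart in the same way, and each was the lowest of its condition for 8 of the 10 genes. Without either H47_KO library the number of members called was the same in every H47 comparison it enters. Values without VP64_Ctrl 0 h replicate 3 are given beside several of the results they touch. In bulk RNA, fewer cells of a type and less RNA per cell cannot be told apart.

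The genes were compared on TPM, a level per unit of transcript length scaled to a common total. TAGLN, the actin-bundling protein transgelin, was the most abundant member in H47_Ctrl, with a median of 10521 TPM over 12 libraries. TPM2 and TPM1, the tropomyosins that wind along actin filaments, followed at medians of 8830 and 7612 TPM, and their ranges overlapped with each other and with that of TAGLN. ACTA2, smooth muscle α-actin, had a median of 1136 TPM (502 to 1754), below the lowest value of those 3 genes. CALD1, the actin- and myosin-binding protein caldesmon, had a median of 481 TPM, and MYL9, a regulatory light chain of smooth and non-muscle myosin, a median of 191 TPM. The tropomyosins and TAGLN thus stood far above the actin for which the state is usually scored, while ACTG2 (smooth muscle γ-actin), MYOCD, SYNPO2 and CNN1 were the 4 lowest. CNN1, the actin-binding protein calponin 1, held only 0 to 42 counts in any library, so its values carry the largest counting error of the 10.

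**Figure D1:**
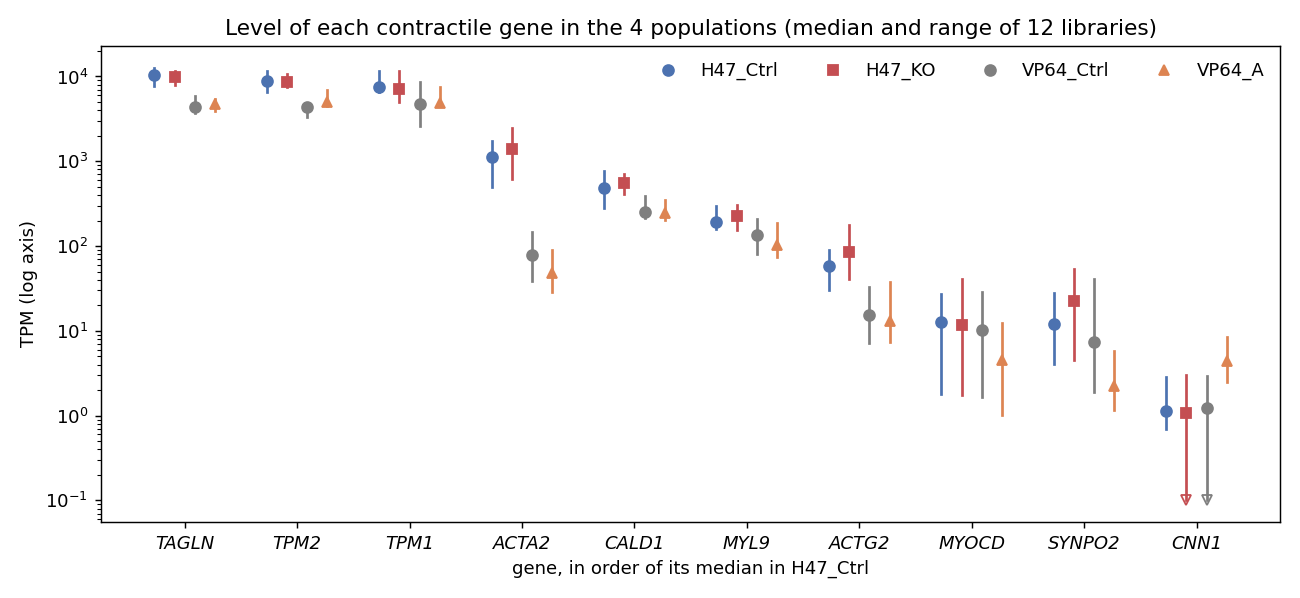
Level of each of the 10 genes in TPM (log axis) by cell population, with a point at the median of the 12 libraries and a line over their range. TAGLN, TPM1 and TPM2 lie highest in all 4 populations, and the ACTA2 ranges of the VP64 populations (28.6 to 145 TPM) lie below those of the H47 populations (502 to 2480 TPM).

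The 10 genes lie on 10 different chromosomes of GRCh38 (GENCODE v44). The actins are at chr10:88935074-88991339 on the minus strand (ACTA2) and chr2:73892314-73919865 on the plus strand (ACTG2). MYOCD is at chr17:12665890-12768949 and SYNPO2 at chr4:118850688-119061247, both on the plus strand. ACTA2 overlaps exons of FAS on the opposite strand and TAGLN overlaps exons of PCSK7 likewise, and the sources used here do not say whether strand was used in quantification. FAS held 28 to 733 counts and PCSK7 115 to 841. The mature actin transcripts are near-identical in protein but not in sequence: ACTA2 and ACTG2 shared 0% of their 31-base words, and no pair tested shared as much as 0.5%.

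ACTA2 and ACTG2 had their highest value in the same library in 14 of 16 conditions, and their promoters are therefore shown side by side. The count was not made for other pairs of genes, and libraries of a condition also differed in scaling. Over the 16 condition means, centred within each experiment, the pair had an r of 0.52. Both stretches are from RefSeq (GRCh38.p14), begin 150 bases before an annotated start, run 5′ to 3′ in the direction of the gene and lie inside the longer gene spans given above. Capitals mark the CArG box, read on both strands as CC, 6 bases of A or T, and GG; the ACTG2 boxes are exact and begin 110 and 73 bases before the start, whereas each ACTA2 box departs from the pattern at 1 base and they begin 121 and 71 bases before it.
ACTG2, chr2:73892858-73892947, plus strand: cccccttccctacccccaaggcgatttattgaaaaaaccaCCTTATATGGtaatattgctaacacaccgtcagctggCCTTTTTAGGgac
ACTA2, chr10:88952834-88952923, minus strand: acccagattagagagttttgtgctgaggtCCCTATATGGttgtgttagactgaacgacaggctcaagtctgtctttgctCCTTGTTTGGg
An exact box was present in 1.29% of the 35116 promoter windows of 300 bases in the table, and a box with at most 1 departure in 18.9%. Of the 7 members with a promoter in the table, ACTG2 was the one with an exact box. SYNPO2 and CALD1 had boxes with 1 departure in 1 and 2 of their windows, respectively. A match is a description of the letters and not a measured binding site.

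The first question was how the 10 genes respond to the cytokines. MYOCD rose and SYNPO2 fell in all 4 populations, whereas ACTA2, the gene most used to score myofibroblasts, was called in 1 of 12 comparisons with 0 h. MYL9 rose in both VP64 populations, TPM1 in VP64_Ctrl and at 24 h in VP64_A, and TAGLN in VP64_Ctrl. TPM2, CALD1, CNN1 and ACTG2 were called at no time in any population. A gene was called where its adjusted p in edgeR's quasi-likelihood test, over all genes of the experiment, was below 0.05. Over the 120 tests of a member against 0 h, 34 were called, 25 of them higher, and 20 of the 34 belonged to MYOCD or SYNPO2.

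Per population the counts were as follows, beside the share of all tested genes called in either direction. In H47_Ctrl, 2, 2 and 1 of the 10 genes were called at 6, 12 and 24 h, where 15.9%, 19.6% and 10.3% of 10962 genes were called. H47_KO gave the same counts of 2, 2 and 1, against 23.9%, 27.4% and 15.8% of all genes. VP64_Ctrl gave 4, 5 and 5 members, against 28.8%, 26.8% and 16% of 10980 genes. VP64_A gave 3, 3 and 4, against 17.4%, 19.7% and 13.6%. In both H47 populations the members' share was thus near that of all genes. The median log2 change of the 10 genes at 6, 12 and 24 h was -0.10, 0.03 and 0.36 in H47_Ctrl, beside -0.03, -0.01 and 0.01 over all genes. In H47_KO it was 0.52, 0.13 and -0.01 beside -0.10, -0.05 and 0.02, and without H47_KO 0 h replicate 3 it was 0.28, -0.13 and -0.28. In VP64_Ctrl it was 0.66, 0.48 and 0.78 beside -0.05, -0.01 and 0.00, and without VP64_Ctrl 0 h replicate 3 it was 0.52, 0.42 and 0.60. In VP64_A it was 0.28, 0.37 and 0.28 beside -0.01, 0.01 and 0.00.

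**Figure D2:**
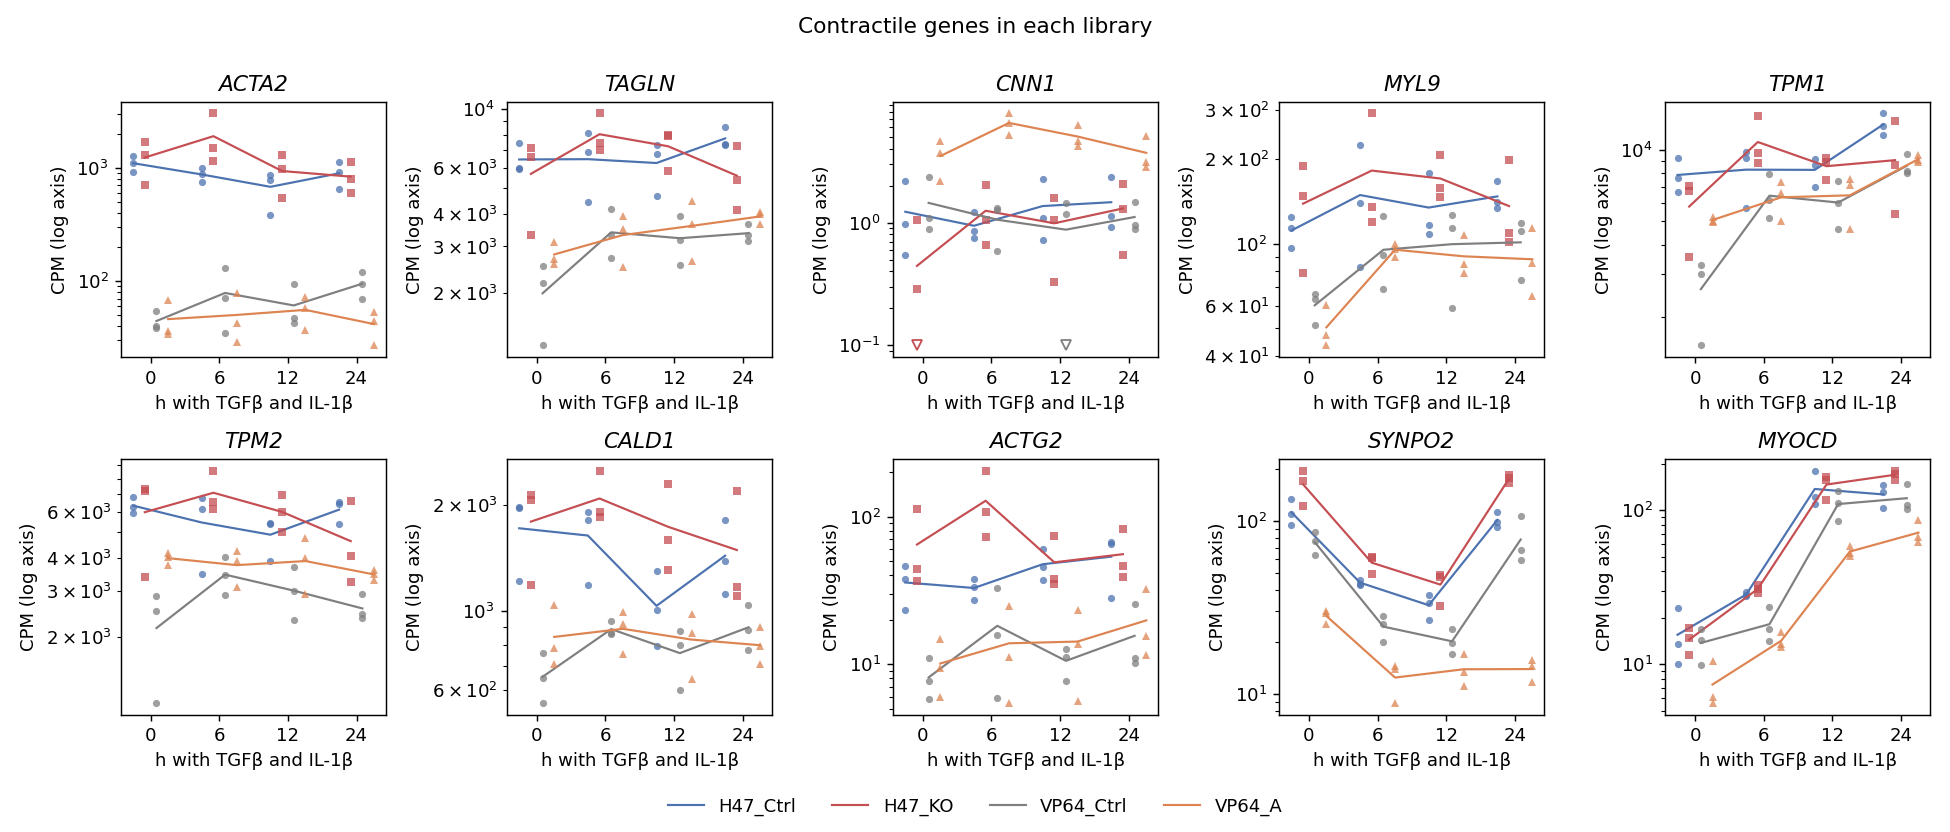
Level of each gene in CPM (log axis) at 0, 6, 12 and 24 h (evenly spaced) in the 4 populations, with 1 point per library and lines through the means of 3 libraries. MYOCD climbs between 6 and 12 h in every population, and SYNPO2 dips at 6 and 12 h and is back near its 0 h level at 24 h in all but VP64_A; open triangles mark CNN1 libraries at 0.

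MYOCD encodes myocardin, the coactivator that switches on smooth muscle genes through SRF. In H47_Ctrl it lay at 13.6, 23.01 and 9.99 CPM at 0 h, at 29.3, 28.1 and 27.6 at 6 h, at 122, 110 and 180 at 12 h and at 145, 130 and 103 at 24 h. The H47_KO libraries held 11.6, 14.7 and 17.1 CPM at 0 h, 29.04, 32.5 and 30.9 at 6 h, 165, 117 and 158 at 12 h and 180, 173 and 156 at 24 h. At 12 and 24 h every library lay above every 0 h library of its population, in the VP64 experiment as well. VP64_Ctrl went from 14.5, 9.91 and 16.9 CPM at 0 h through 23.5, 17.05 and 14.1 at 6 h to 111, 84.3 and 133 at 12 h and 109, 101 and 149 at 24 h. VP64_A went from 6.09, 5.61 and 10.5 CPM through 13.002, 13.5 and 16.1 to 53.0, 50.1 and 58.4 and then 61.9, 66.5 and 85.8. The rise was therefore of similar size in all 4 populations, from levels that were lowest in VP64_A.

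The log2 change of MYOCD at 12 h was 3.12 ± 0.22 (SE, n = 3 and 3 libraries) in H47_Ctrl, with an edgeR adjusted p of 5.23e-13. It was 3.30 ± 0.22 in H47_KO (adjusted p = 9.1e-14), 3.02 ± 0.22 in VP64_Ctrl (1.57e-12) and 2.92 ± 0.24 in VP64_A (2.25e-11). These correspond to 8.72-, 9.88-, 8.11- and 7.55-fold higher levels. Between 12 and 24 h no population showed a called change of MYOCD. At 6 h the increase was smaller and passed the test in H47_Ctrl (0.83 ± 0.22, adjusted p = 0.00816), H47_KO (1.04 ± 0.23, 0.00117) and VP64_A (0.98 ± 0.26, 0.00665), while VP64_Ctrl overlapped its 0 h libraries (0.48 ± 0.24, 0.126). The 6 h calls were lost on log2(TPM + 1) with limma, and also without H47_Ctrl 0 h replicate 1 or 3 (1 member then called in H47_Ctrl) or without VP64_A 0 h replicate 1 (2 members in VP64_A). The levels of MYOCD partners moved less: SRF was higher at 24 h by 1.16 ± 0.27 on the log2 scale in H47_KO (adjusted p = 0.00212), 1.00 ± 0.32 in VP64_Ctrl (0.0265) and 1.14 ± 0.35 in VP64_A (0.0244), and its value in H47_Ctrl was 0.68 ± 0.29 (0.149). The myocardin-related coactivators MRTFA (listed as MKL1) and MRTFB (listed as MKL2) were lower in VP64_Ctrl at 12 h, by log2 changes of -1.08 ± 0.24 (0.00102) and -1.32 ± 0.32 (0.00259). On log2(TPM + 1) the median of all genes in that comparison shifted by -0.51. Without VP64_Ctrl 0 h replicate 3, SRF in VP64_Ctrl at 24 h was at 1.31 ± 0.34 (edgeR adjusted p = 0.00701). MRTFA and MRTFB in VP64_Ctrl at 12 h were then at -0.90 ± 0.25 (0.00855) and -1.08 ± 0.34 (0.0203).

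Of the actins, ACTA2 rose in VP64_Ctrl at 24 h. Its libraries held 38.5, 54.5 and 40.5 CPM at 0 h, 35.2, 70.5 and 130 at 6 h, 42.4, 47.03 and 93.7 at 12 h and 121, 93.9 and 69.9 at 24 h. The 24 h libraries lay above all 0 h libraries, by a log2 change of 1.12 ± 0.36 (adjusted p = 0.029), or 2.17-fold. This call was lost with DESeq2 (adjusted p = 0.101) and on log2(TPM + 1) (0.109). In H47_Ctrl, ACTA2 was at 1283, 1093 and 922 CPM at 0 h and at 647, 1116 and 922 CPM at 24 h. The groups overlapped, and the log2 change of -0.27 had a 95% interval of -0.95 to 0.41, which leaves out a halving and a doubling. In VP64_A the 24 h libraries, at 44.6, 53.6 and 27.1 CPM, overlapped those at 0 h, at 36.6, 67.9 and 34.1 CPM, with a change of -0.16 (-0.89 to 0.57). ACTG2 was not called against 0 h in any population, with log2 values at 24 h from -0.23 ± 0.37 in H47_KO to 1.01 ± 0.50 in VP64_Ctrl (adjusted p = 0.176). At 6 h its change in H47_KO was 0.94 ± 0.37 (0.0617), from 113, 44.3 and 36.4 CPM to 73.1, 204 and 107 CPM. It was called there without H47_KO 0 h replicate 1 or 6 h replicate 1 (3 members called), and in VP64_Ctrl at 6 h (1.00 ± 0.53, 0.157) without 6 h replicate 1.

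After MYOCD, TPM1 showed the largest rise with time, again in VP64_Ctrl. It was at 3021, 3278 and 1514 CPM at 0 h, at 5172, 6162 and 7903 at 6 h, at 5979, 4672 and 7354 at 12 h and at 9561, 8111 and 7996 at 24 h. All 9 later libraries lay above the 3 at 0 h, and the log2 change at 24 h was 1.75 ± 0.28 (adjusted p = 2.12e-05), or 3.35-fold; without VP64_Ctrl 0 h replicate 3 it was 1.46 ± 0.26 (0.000103). In VP64_A, TPM1 was at 5013, 4966 and 5239 CPM at 0 h and at 8909, 9456 and 9017 CPM at 24 h (0.87 ± 0.28, 0.032). In H47_Ctrl, its 24 h libraries at 12569, 14207 and 11485 CPM also lay above the 0 h libraries at 9225, 7603 and 6666, but the change of 0.73 ± 0.33 did not pass the test (0.199). TPM2, the other tropomyosin, held 2513, 2855 and 1123 CPM at 0 h and 2904, 2364 and 2439 CPM at 24 h in VP64_Ctrl, so the tropomyosins did not move together there (TPM2 0.28 ± 0.27, 0.548).

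MYL9 rose in both VP64 populations at every time. In VP64_A it was at 60.6, 43.5 and 47.2 CPM at 0 h, 100, 89.9 and 95.7 at 6 h, 84.4, 108 and 78.7 at 12 h and 85.5, 114 and 65.0 at 24 h, so all 9 treated libraries lay above the untreated ones. The log2 changes were 0.91, 0.86 and 0.81, the last with an SE of 0.24 and an adjusted p of 0.018. In VP64_Ctrl it was at 63.4, 66.5 and 51.3 CPM at 0 h and at 118, 111 and 74.4 CPM at 24 h (0.76 ± 0.23, 0.0213). TAGLN was called in VP64_Ctrl, where it rose from 2168, 2538 and 1258 CPM at 0 h to 2705, 3316 and 4167 at 6 h, 3188, 2553 and 3935 at 12 h and 3652, 3156 and 3308 at 24 h. Its log2 changes were 0.77, 0.72 and 0.79, the last with an SE of 0.26 (adjusted p = 0.0345). The difference of this rise from VP64_A and, at 24 h, from H47_Ctrl is tested further on, and that from H47_KO was not tested. TAGLN in H47_Ctrl was at 7423, 5931 and 5969 CPM at 0 h and 7316, 8571 and 7361 CPM at 24 h (0.29 ± 0.31, 0.695).

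These gains in VP64_Ctrl depended on single libraries and on the scale. Without VP64_Ctrl 0 h replicate 3, TAGLN and MYL9 were not called at 6, 12 or 24 h, nor ACTA2 at 24 h, and 2, 3 and 2 members remained called. The log2 changes were then 0.51, 0.46 and 0.54 for TAGLN and 0.53, 0.62 and 0.65 for MYL9, and 1.05 ± 0.41 for ACTA2 (adjusted p = 0.09). At 24 h, leaving out VP64_Ctrl 0 h replicate 1, 24 h replicate 1 or 24 h replicate 2 also left 2, and leaving out 24 h replicate 3 left 4. At 6 h, leaving out 6 h replicate 2 or 3 left 2, whereas leaving out 6 h replicate 1 gave 6 and leaving out 0 h replicate 1 gave 3. At 12 h, leaving out 12 h replicate 3 left 3, and leaving out 0 h replicate 1 or 12 h replicate 1 or 2 left 4, TAGLN or MYL9 losing the call. On log2(TPM + 1) the median of all genes was shifted by -0.65, -0.51 and -0.32 at 6, 12 and 24 h in VP64_Ctrl. There TAGLN was 0.05 and 0.16 at 6 and 12 h, and MYL9 turned to -0.16 at 6 h, so that relative to the shift both remained above the median gene. In VP64_A at 24 h, TPM1 lost its call when any 1 of the 6 libraries was left out, and MYL9 when 0 h replicate 2 or 3 or 24 h replicate 2 was left out, with 2 members called in those 3 cases; at 12 h MYL9 lost it without 12 h replicate 2 (2 members called).

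CALD1 and CNN1 showed no called time change. CALD1 in H47_Ctrl was at 1973, 1954 and 1216 CPM at 0 h and at 799, 1009 and 1298 at 12 h, and its 24 h libraries held 1804, 1381 and 1117 (-0.23 ± 0.30 at 24 h, 0.756). CNN1 lay between 0.544 and 2.34 CPM in H47_Ctrl at all times, on 2 to 10 counts per library. At that depth the 95% interval of its log2 change at 24 h ran from -1.04 to 1.92, so a 2-fold change in either direction was not detectable.

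SYNPO2 encodes synaptopodin 2, an actin-binding protein of smooth and striated muscle, and it went the other way. In H47_Ctrl it fell from 133, 109 and 94.3 CPM at 0 h to 42.6, 45.7 and 43.3 at 6 h and 37.3, 26.7 and 33.5 at 12 h, and stood at 98.9, 112 and 91.9 at 24 h. In H47_KO it went from 194, 170 and 122 CPM to 49.3, 61.0 and 61.4, then to 47.4, 32.1 and 48.8, and stood at 177, 184 and 165 at 24 h. No library at 6 or 12 h reached the lowest 0 h library, while the 24 h libraries overlapped those at 0 h. VP64_Ctrl followed the same course, from 76.8, 63.5 and 85.6 CPM through 28.2, 19.8 and 25.2 and 19.7, 23.6 and 16.98 to 59.4, 67.8 and 107. In VP64_A, SYNPO2 started at 25.2, 29.9 and 29.4 CPM, was 14.5, 13.9 and 8.84 at 6 h and 11.1, 13.4 and 17.1 at 12 h, and remained at 11.7, 15.6 and 14.4 at 24 h. VP64_A was thus the population whose 24 h libraries all lay below its 0 h libraries.

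At 12 h the log2 change of SYNPO2 was -1.77 ± 0.19 in H47_Ctrl (adjusted p = 5.76e-09), -1.95 ± 0.18 in H47_KO (1.48e-10), -1.87 ± 0.21 in VP64_Ctrl (1.84e-08) and -0.98 ± 0.22 in VP64_A (0.00123). At 24 h it was -0.13 ± 0.17, 0.12 ± 0.17 and 0.08 ± 0.19 in the first 3, none called, and -0.999 ± 0.222 in VP64_A (0.00153). The change from 12 to 24 h, a comparison chosen after these values were seen, was 1.64 ± 0.19 in H47_Ctrl (1.7e-07), 2.07 ± 0.18 in H47_KO (1.87e-10) and 1.95 ± 0.21 in VP64_Ctrl (6.77e-08). In VP64_A it was -0.01 ± 0.24 (0.985). SYNPO2 was the only member called from 12 to 24 h, 1 of 10 in each of the first 3 populations, where 8.64%, 16.3% and 8.38% of all genes were called, and 0 of 10 in VP64_A, where 6.38% were.

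**Figure D3:**
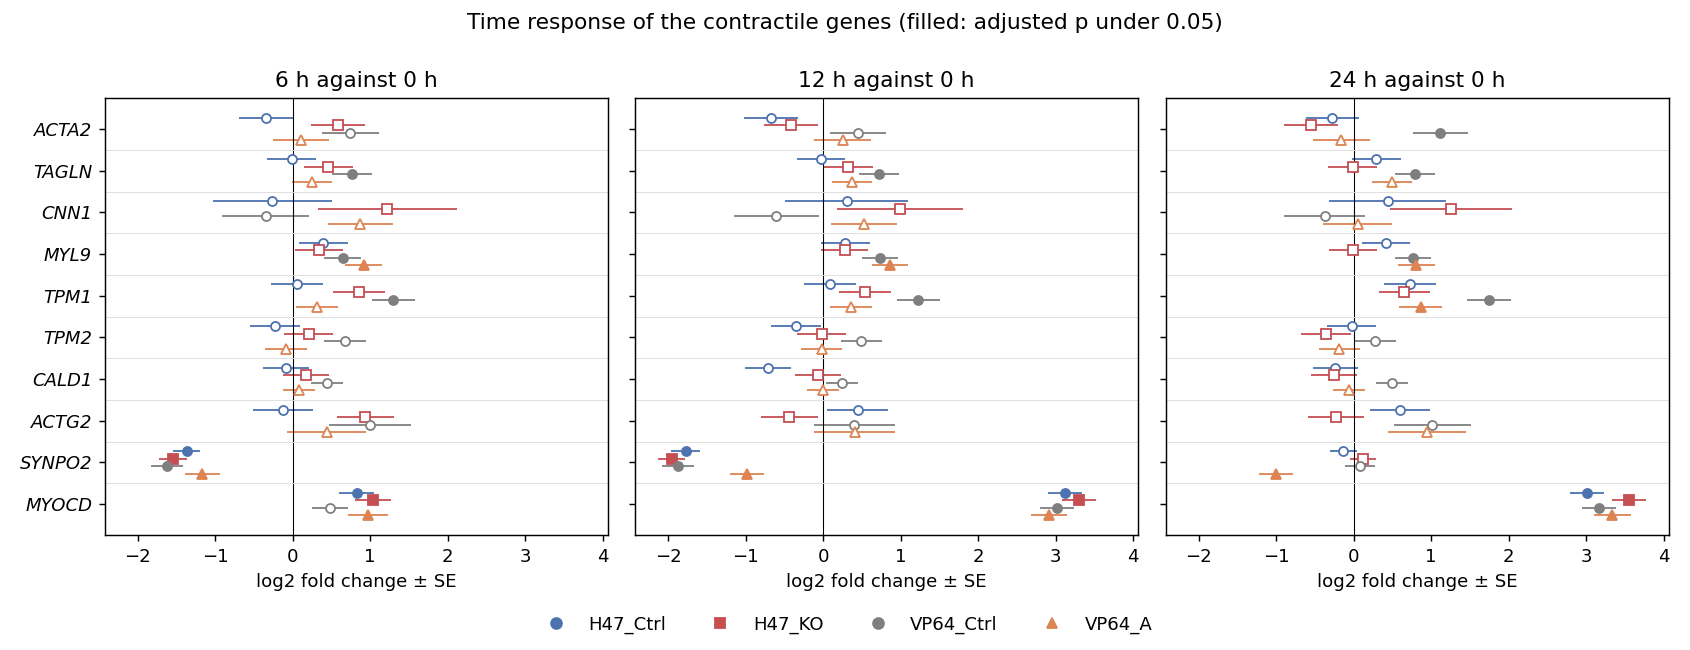
Log2 change against 0 h at 6, 12 and 24 h for each gene and population from the edgeR fit of each experiment, with bars of 1 SE and filled points for adjusted p under 0.05. MYOCD lies between 2.92 and 3.55 at 12 and 24 h in all populations, SYNPO2 lies between -0.98 and -1.95 at 6 and 12 h, and TPM1 in VP64_Ctrl reaches 1.75 at 24 h.

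The second question was whether these genes differed between H47_KO and H47_Ctrl. Each is 1 pool of cells, so the guide and the pool cannot be told apart. ACTG2 was higher in H47_KO at 6 h and on average, SYNPO2 was higher at 24 h and on average, and the other 8 genes were called nowhere. Of the 10 genes, 0, 1, 0 and 1 were called at 0, 6, 12 and 24 h, beside 0.301%, 0.319%, 0.0821% and 0.21% of all genes, and 2 on the average of the 4 times, beside 3.07%. The median log2 difference of the 10 genes on that average was 0.16, against -0.01 over all genes.

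ACTG2 at 6 h was at 33.3, 27.3 and 37.8 CPM in H47_Ctrl and at 73.1, 204 and 107 CPM in H47_KO. All H47_KO libraries lay above all H47_Ctrl libraries, by 1.93 ± 0.39 on the log2 scale (adjusted p = 0.0157), or 3.82-fold, and the average difference was 0.71 ± 0.19 (0.0312). ACTA2 at 6 h was at 748, 876 and 999 CPM in H47_Ctrl and at 1161, 3037 and 1511 CPM in H47_KO, where replicate 2 was again the highest. That library, H47_KO 6 h replicate 2, had the lowest scaling factor of all 48 libraries, at 0.664. The part of scaling in its CPM values was not tested. The ACTA2 groups did not overlap either, but the difference of 1.11 ± 0.35 did not pass the test (0.174). The cardiac actin gene ACTC1, on the list of striated muscle markers, was also higher in H47_KO at 6 h, by 2.05 ± 0.45 (0.0295), and on average by 1.07 ± 0.23 (0.00499). The markers MYH7, TNNT2, MYOD1 and MYOG were at 0 in all libraries, and the list summed to 15.9 to 54.0 CPM in H47_Ctrl and 25.6 to 275 CPM in H47_KO; its part in the actin values was not tested. The 6 h call of ACTG2 was lost without any 1 of the H47_Ctrl 6 h libraries or H47_KO 6 h replicate 2 (0 members called), and on log2(TPM + 1) (0.147). The average call was lost with DESeq2 (0.0808) and without any 1 of 10 libraries (1 member called), namely H47_Ctrl 0 h replicates 1 and 2, 6 h replicate 2, 12 h replicates 1 and 3 and 24 h replicate 1, and H47_KO 0 h replicate 1, 6 h replicate 2, 12 h replicate 3 and 24 h replicate 2.

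SYNPO2 differed by 0.54, 0.37, 0.36 and 0.80 on the log2 scale at the 4 times, and the last of these, with an SE of 0.17, passed the test (adjusted p = 0.036). The average was 0.52 ± 0.09 (0.000427), or 1.43-fold. Its values at 24 h, given above, did not overlap between the groups. The 24 h call was lost without any 1 of the 3 H47_Ctrl 24 h libraries or H47_KO 24 h replicate 2, with 0 members called, while the average call held in each of the alternatives. For ACTA2 the average difference was 0.41 (95% interval 0.07 to 0.75, adjusted p = 0.226), for TAGLN -0.04 (-0.35 to 0.27) and for MYOCD 0.12 (-0.09 to 0.33). A halving or doubling of these 3 genes averaged over the time course lies outside the intervals.

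The change with time was then compared between H47_KO and H47_Ctrl. At 6, 12 and 24 h, 0 of the 10 genes had a response that differed between the populations, where 0.00912%, 0% and 0% of all genes were called, so the test called almost no gene of any kind. None of the 10 differed in the change from 12 to 24 h, where 0% of genes were called. The difference in the response of SYNPO2 at 24 h was 0.25 (-0.21 to 0.72) and that of MYOCD 0.54 (-0.05 to 1.12).

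The third question was whether the genes differed between VP64_A and VP64_Ctrl, where again the guide and the pool cannot be told apart. In the libraries described as VP64_A, those with the higher GLIS3, CNN1 and TPM2 were higher and SYNPO2 and MYOCD were lower than in the libraries described as VP64_Ctrl. The direction would turn round if the titles rather than the descriptions were followed. At 0, 6, 12 and 24 h, 4, 2, 2 and 2 of the 10 genes were called, beside 9.41%, 3.76%, 4.31% and 4.13% of all genes, and 4 on average, beside 18.4%. The members split evenly by direction, with 2 higher and 2 lower on average, and their median was 0.13 against 0.00 over all genes.

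SYNPO2 showed the largest difference at 0 and 24 h and CNN1 at 6 and 12 h and on average. The levels of SYNPO2 are given above. At 24 h the 3 VP64_A libraries, at most 15.6 CPM, lay below the 3 VP64_Ctrl libraries, at least 59.4 CPM. The log2 difference was -2.50 ± 0.22 (edgeR adjusted p = 1.17e-09), a 5.65-fold lower level. At 0 h it was -1.42 ± 0.20 (6.05e-06) and at 6 h -0.96 ± 0.23 (0.0112), while at 12 h, when both populations were at their lowest, it was -0.53 ± 0.23 and not called (0.252). The 6 h call was lost without VP64_A 6 h replicate 3 or VP64_Ctrl 6 h replicate 1 (1 member called). On average the difference was -1.35 ± 0.11 (2.32e-11).

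MYOCD differed by -0.92 ± 0.24 at 0 h (adjusted p = 0.0123), -1.02 ± 0.21 at 12 h (0.00156) and -0.74 ± 0.20 at 24 h (0.0266), and by -0.77 ± 0.11 on average (3.6e-06), a 1.71-fold lower level. At 12 and 24 h the groups did not overlap. At 6 h the value was -0.42 ± 0.25 and was not called (0.508). The 24 h call was lost without VP64_A 24 h replicate 1 or 2 (1 member called) or VP64_Ctrl 24 h replicate 3 (2 members, ACTA2 taking its place).

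CNN1 at 6 h was at 7.76, 5.14 and 6.50 CPM in VP64_A, on 37, 24 and 25 counts, and at 1.30, 1.27 and 0.587 CPM in VP64_Ctrl, on 9, 5 and 1 counts. At 12 h it was at 4.22, 4.57 and 6.23 CPM in VP64_A and at 1.18, 1.44 and 0 CPM in VP64_Ctrl. The groups did not overlap at either time, and the differences were 2.46 ± 0.53 (adjusted p = 0.00305) and 2.37 ± 0.53 (0.00441). The average was 1.93 ± 0.25 (5.6e-07), or 3.81-fold. CNN1 at 24 h did not overlap between the groups but missed the threshold (1.66 ± 0.52, 0.0703), and so did its value at 0 h (1.24 ± 0.44, 0.0716).

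TPM1 and TPM2 were higher in VP64_A at 0 h, by 0.97 ± 0.28 (adjusted p = 0.0232) and 0.89 ± 0.27 (0.0326). For TPM2 the 0 h libraries held 3762, 4019 and 4186 CPM in VP64_A against 2513, 2855 and 1123 CPM in VP64_Ctrl. Without VP64_Ctrl 0 h replicate 3, or without VP64_A 0 h replicate 1 or 2, both tropomyosins and MYOCD lost the call at 0 h and 1 member remained called; without VP64_A 0 h replicate 3 both tropomyosins lost it and 2 remained. On average TPM2 was higher by 0.46 ± 0.13 (0.0151), and TPM1 differed by 0.29 ± 0.14 (0.153). Without VP64_Ctrl 0 h replicate 3 the average of TPM2 was 0.37 ± 0.11 (0.0144), and CNN1, SYNPO2 and MYOCD, at 1.87, -1.33 and -0.74, were also still called. ACTA2 averaged -0.47 ± 0.18 (0.0755) and at 24 h differed by -1.21 ± 0.37 (0.0596), where its libraries at 27.1 to 53.6 CPM lay below those of VP64_Ctrl at 69.9 to 121 CPM. TAGLN, MYL9, CALD1 and ACTG2 had averages of 0.21, -0.15, 0.09 and 0.17, none called, with TAGLN bounded between -0.04 and 0.46. The epithelial keratin KRT18 was also higher in VP64_A, at a median of 3548 CPM against 926 CPM, while EPCAM was at 0 in both, and the part of this in the members' values was not tested.

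**Figure D4:**
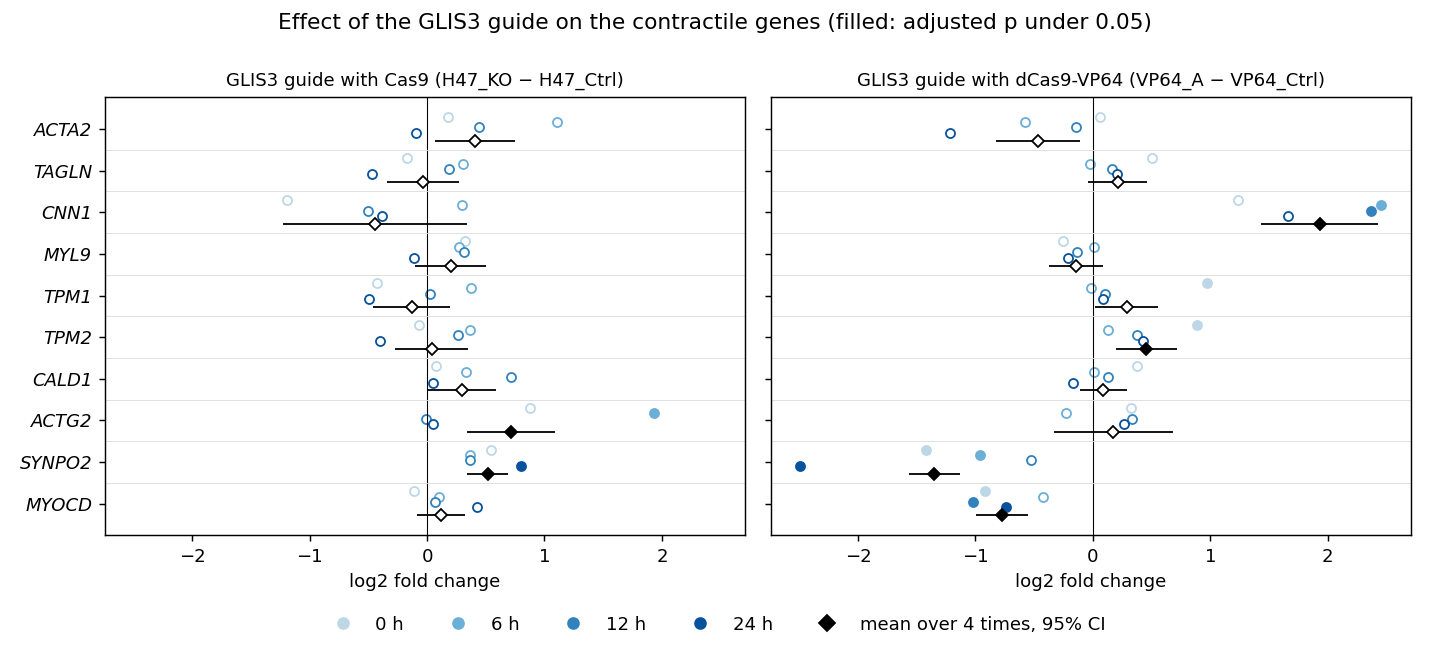
Log2 difference between the guide and its control at each time and on average, for H47_KO against H47_Ctrl and VP64_A against VP64_Ctrl. Bars are drawn on the averages only and span the confidence interval, not 1 SE. Filled points mark an adjusted p under 0.05. SYNPO2 is above 0 in H47_KO (0.52 on average) and below 0 in VP64_A (-1.35), and CNN1 stands at 1.93 on average in VP64_A.

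The responses were compared between VP64_A and VP64_Ctrl in the same fit. Of the 10 genes, 0 differed at 6, 12 and 24 h, beside 0.0911%, 0.264% and 0.209% of all genes. The lower MYOCD level of VP64_A thus went with a response whose difference was 0.17 at 24 h (95% interval -0.44 to 0.78). The 24 h difference was -1.08 (-1.65 to -0.51, adjusted p = 0.181) for SYNPO2 and -1.28 (-2.28 to -0.27, 0.586) for ACTA2. For TAGLN the differences at 6, 12 and 24 h were -0.52, -0.34 and -0.29 (adjusted p = 0.693, 0.809 and 0.94). Without VP64_Ctrl 0 h replicate 3 the 24 h differences were -1.21 (adjusted p = 0.147) for SYNPO2, -1.23 (0.806) for ACTA2, -0.07 (1) for TAGLN and -0.01 (1) for MYOCD, and 0 members were called at each time. In the comparison of the change from 12 to 24 h, chosen after the values were seen, SYNPO2 differed by -1.97 ± 0.32 (-2.59 to -1.35, adjusted p = 0.0037), and it was 1 of 10 members called, beside 0.0364% of all genes. That call held in each of the 12 fits that left out 1 library of the 4 groups, and was lost with limma on log2(TPM + 1), where the difference was -1.95 (adjusted p = 0.381).

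The 2 control populations, both with non-targeting guides, were also set side by side, in a comparison chosen after values had been seen. In a fit of all 48 libraries, 8 of the 10 genes were lower in VP64_Ctrl than in H47_Ctrl on the average of the 4 times, where 9.2% of 11422 genes were lower. ACTA2 was at 387 to 1283 CPM in H47_Ctrl and at 35.2 to 130 CPM in VP64_Ctrl, a log2 difference of -3.72 ± 0.22 (adjusted p = 5.1e-19), or 13.2-fold. ACTG2 was lower by -1.79 ± 0.25, TAGLN by -1.19 ± 0.14 and TPM2 by -1.04 ± 0.15. CALD1 differed by -0.85 ± 0.13, TPM1 by -0.75 ± 0.15, MYL9 by -0.63 ± 0.15 and SYNPO2 by -0.61 ± 0.10, and all 8 of these differences were called. MYOCD (-0.30 ± 0.11, 0.0529) and CNN1 (-0.07 ± 0.35, 0.931) were not called; MYOCD was called as well, making 9, when 0 h replicate 1 or 3 or 24 h replicate 3 of either population was left out. The Cas9 protein, the experiment and the line cannot be told apart as the source of this difference. In the response at 24 h, 0 of the 10 genes differed between VP64_Ctrl and H47_Ctrl, beside 0.49% of all genes. For TAGLN, whose rise was called in VP64_Ctrl and not in H47_Ctrl, the difference in response was 0.50 ± 0.40 (adjusted p = 0.841), and for ACTA2 it was 1.39 ± 0.55 (0.432).

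Related genes were followed by lists. Of all genes tested, 10.3%, 11.3% and 6.53% were called higher at 6, 12 and 24 h in H47_Ctrl, 13.2%, 14.4% and 9.07% in H47_KO, 16.2%, 15.3% and 10.4% in VP64_Ctrl and 11.4%, 12.6% and 9% in VP64_A. All 7 genes of the IL-1 response list found in the table rose at 6 and 12 h in every population, and of 8 TGFβ response genes 5 rose at 24 h in H47_Ctrl and 4 in H47_KO. In VP64_Ctrl 7 of 7 tested rose, also without 0 h replicate 3, and in VP64_A 6 of 7. The difference between populations in these counts was not tested. In H47_Ctrl at 24 h, LTBP2 (1.00 ± 0.20, adjusted p = 0.000737), SKIL (1.24 ± 0.26, 0.00131) and CTGF (1.52 ± 0.34, 0.0021) had the smallest p of the TGFβ list. In VP64_A against VP64_Ctrl on average, LTBP2 (0.58 ± 0.10, 7.54e-05) and COL1A1 (1.14 ± 0.17, 5.97e-06) were higher, and 1 gene of the list was lower. Of all genes, 9.15% were higher and 9.23% lower in that comparison.

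Of 10 other smooth muscle genes, 4 passed the filter on low counts. SMTN, which encodes smoothelin, rose at 24 h in H47_Ctrl (1.09 ± 0.27, adjusted p = 0.00512), as did LMOD1, the actin nucleator leiomodin 1 (0.86 ± 0.21, 0.00603), and MYLK, myosin light chain kinase, was at 0.04 ± 0.15 (0.935). None of the 4 was called in VP64_A against VP64_Ctrl on average, where LMOD1 was -0.26, SMTN 0.12 and MYLK 0.09. Of 14 non-muscle actomyosin genes, 8, 5 and 4 rose in VP64_Ctrl at 6, 12 and 24 h and 2, 3 and 2 in VP64_A, with 0, 1 and 1 in H47_Ctrl and 3, 1 and 1 in H47_KO. Without VP64_Ctrl 0 h replicate 3 the counts in VP64_Ctrl were 5, 3 and 3, where 12.8%, 12% and 8.42% of all genes were called higher, and without H47_KO 0 h replicate 3 those in H47_KO were 1, 1 and 0. Of the 8 genes on the list of SRF and its coactivators, 4 were higher and 0 lower in VP64_A on average, also without VP64_Ctrl 0 h replicate 3, where 9.15% of all genes were higher. These were CSRP1, CSRP2, FHL1 and FHL2, LIM-domain proteins, named after their values were seen. SRF, MRTFA and MRTFB were not among them. Without VP64_Ctrl 0 h replicate 3 their averages were -0.36 ± 0.17 (edgeR adjusted p = 0.148), 0.02 ± 0.12 (0.95) and -0.30 ± 0.17 (0.255). In H47_KO, 1 of the 8, FHL1, was higher, where 1.98% of all genes were. Pericyte markers summed to 104 to 190 CPM in VP64_A and 188 to 393 CPM in VP64_Ctrl, nearly all of it CSPG4 (medians of 141 and 238 CPM). The medians of RGS5, MCAM and NOTCH3 were at most 0.69 CPM in both. Of 3 pericyte markers tested, 2 were lower on average, where 9.23% of all genes were lower. Their part in the members' values was not tested. Of the 3 immune markers 1 passed the filter, and the list summed to at most 81.1 CPM.

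The 10 genes did not form 1 pattern. Over the 16 condition means, centred within each experiment and correlated as a description only, since libraries of 1 experiment share their cells and scaling, TAGLN and TPM1 were most alike among the members (r = 0.92), followed by ACTA2 and CALD1 (0.72). SYNPO2 ran against TAGLN (-0.56), and ACTA2 and MYOCD had an r of -0.10. Among 10691 genes, those most like ACTA2 were FBLN5 (0.81), POLR2K (0.78), CAV2 (0.76), PIPSL (0.75) and SMAD4 (0.75), and 1 other member stood in its top 100. Those most like TAGLN were FSTL1, KDELR2 and CALU (each 0.95), ACTN1 and TMED2 (each 0.93), again with 1 other member in the top 100.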

How the data were processed

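RNA was extracted with TRIzol and sequenced on a NextSeq 500 at the end of a reverse time course, in which all time points were collected together. The authors trimmed reads with Trim Galore, mapped them with STAR (build GRCh38), estimated gene abundance by Salmon and used DESeq2; versions are not given in the sources used here. The deposited tables hold estimated counts per gene, not normalized, and TPM, scaled by the authors for transcript length and depth. Of the estimated counts, 6.38% were not whole, and all were rounded to whole numbers.

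Counts were tested with edgeR 4.0.16 in R 4.3.3 (TMM scaling, filterByExpr with a minimum count of 10 and minimum total of 15, quasi-likelihood test). Each experiment was fitted on its 24 libraries with 8 groups, and all 48 libraries were fitted together for comparisons between experiments. P-values were adjusted by Benjamini-Hochberg over all genes tested (10962 in H47, 10980 in VP64, 11422 together), with a threshold of 0.05. CPM values use TMM library sizes over all 48 libraries, except those of GLIS3, which use the total counts of each library without TMM. The n is 3 libraries per condition. Depth limits the precision of low genes. Separately, tests on simulated data were run for H47_Ctrl and for VP64_Ctrl at 24 h, over genes of all levels together. Apart from the changed genes, the simulated libraries shared 1 mean profile, so differences in composition between libraries were not simulated. For H47_Ctrl they recovered 49.5% of genes changed by a log2 of 1 and 87.2% of those changed by 2, among 10635 genes. Of the calls, 3.73% were false. For VP64_Ctrl the shares were 50.5%, 93% and 7.84%, among 10693 genes.

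The alternatives were DESeq2 1.42.0, its size factors in edgeR, no filter, limma 3.58.1 on log2-transformed TPM with a pseudocount of 1 or of 0.1, a replicate block, 1 fit over all libraries, the compared libraries alone and leaving out each library. For comparisons between experiments, only the control libraries at 0 and 24 h were left out in turn. The related lists were also counted without each of 3 libraries with a scaling factor above 1.5, a choice made after seeing the data. All 10 members are named. Of the other lists (SRF and its coactivators, other smooth muscle, non-muscle actomyosin, TGFβ and IL-1 response, and fibroblast, pericyte, striated muscle, epithelial, endothelial and immune markers), the rule named SRF, MRTFA and MRTFB, and the 3 genes with the smallest p of the smooth muscle and TGFβ lists in H47_Ctrl at 24 h and in VP64_A against VP64_Ctrl on average, and the 5 genes most correlated with ACTA2 and with TAGLN. The values of 1 gene that the rule named in the TGFβ list are not reported here. Marker genes were named after their values were seen. The members and lists were chosen with earlier results of these data known. Python 3.11.15 and matplotlib 3.10.9 were used for annotation and plots.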

Additional observations from a re-analysis of the deposited data

Results flagged for a closer look

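The change of SYNPO2 from 12 to 24 h differed between the libraries described as VP64_A and VP64_Ctrl, by a log2 value of -1.97 in a test of the difference itself (edgeR adjusted p = 0.0037). SYNPO2 recovered in all 3 VP64_Ctrl libraries and stayed low in all 3 VP64_A libraries. The comparison was chosen after the values were seen, and the planned comparison of the 24 h response with 0 h gave -1.08 with an adjusted p of 0.181.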

How the results depend on the processing

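Of 52 gene results with a call, none changed with DESeq2 size factors or without the filter on low counts, and 2 were lost with DESeq2. With each library left out in turn, 20 were lost in at least 1 fit. On log2(TPM + 1) 18 were lost, on log2(TPM + 0.1) 16, in 1 fit over all libraries 8 and with the compared libraries alone 8; MYL9 in VP64_Ctrl at 6 h turned to -0.159 and -0.160 on the TPM scales.

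Members called changed by over 1.5 times as follows. With DESeq2 they were 2 in H47_Ctrl at 24 h and 1 for H47_KO against H47_Ctrl on average. Without the filter they were 2 in H47_Ctrl at 24 h, 1 and 2 for H47_KO against H47_Ctrl at 0 and 6 h, 1 for the H47_KO response at 6 h, 2 for the VP64_A response at 24 h and 1 for the VP64_Ctrl minus H47_Ctrl response. With limma on log2(TPM + 1) they were 5 and 2 in H47_Ctrl at 12 and 24 h, 2 in H47_KO at 24 h, 2, 3 and 3 in VP64_Ctrl, 1 in VP64_A at 6 h, 0 and 1 for H47_KO against H47_Ctrl at 6 h and on average, 1 each for VP64_A against VP64_Ctrl at 6 and 12 h, 1 each for the VP64_A response at 12 and 24 h and 1 for the VP64_Ctrl minus H47_Ctrl response; log2(TPM + 0.1) gave the same changed counts, except at 12 h in VP64_Ctrl. One fit over all libraries gave 3 and 2 in VP64_Ctrl at 12 and 24 h and 1 for H47_KO against H47_Ctrl on average. The compared libraries alone gave 4 and 3 in H47_Ctrl at 12 and 24 h, 3 in VP64_Ctrl at 12 h, 0 for H47_KO against H47_Ctrl at 24 h, and 1 and 4 for VP64_A against VP64_Ctrl at 0 and 24 h. The cause was not tested.

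Leaving out 1 library gave 1 to 2 in H47_Ctrl at 6 h, 2 to 6, 3 to 5 and 2 to 5 in VP64_Ctrl, 2 to 4 in VP64_A at 24 h, 0 to 1 for H47_KO against H47_Ctrl at 6 and at 24 h and 1 to 2 on average, and 1 to 5, 1 to 2 and 1 to 2 for VP64_A against VP64_Ctrl at 0, 6 and 24 h.

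Replicate numbers did not pair the samples: same-numbered libraries had a mean correlation of deviations of 0.00485 (H47) and 0.0153 (VP64), and 9 of 24 libraries in each experiment correlated best with their own number. A replicate block gave 5, 4 and 5 members called in VP64_Ctrl, 3 for VP64_A against VP64_Ctrl at 24 h, and lost TAGLN at 12 h in VP64_Ctrl (0.70, adjusted p = 0.0552), with no other planned call changed among the gene results. The lowest chi-square per degree of freedom over 48 replicate pairs was 3.80, so no library repeated another of its own condition. Libraries of different conditions were not compared in this way.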
